A study of Homo sapiens with 2 samples.

Results

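Kinesins are motor proteins that walk along microtubules, or take them apart at their ends, using ATP. The genes described here were the protein-coding genes of RefSeq GRCh38 on chromosomes 1 to 22 and X whose symbol is KIF or KIFC followed by a digit, and there were 42 of them among 19974 protein-coding genes. They were sorted by the textbook role of the motor into 14 mitotic kinesins, 15 transport kinesins and 13 others that act in cilia, in signalling or in the control of microtubule length. TCF19 is a nuclear protein whose PHD finger can bind histone tails, and it had been mapped by chromatin immunoprecipitation and sequencing in Ishikawa cells, an established endometrial cancer line. One population was infected with a control lentivirus and the other with a lentivirus that overexpresses TCF19. Both were selected with puromycin and precipitated with the same TCF19 antibody, and each gave 1 library. The deposited data were 1 list of called peaks per library on hg38, so no test of the condition was possible, and values are given library by library. Peak lists hold no expression, so the identity of the cells could not be checked on marker genes.

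In dividing cells a set of kinesins builds the spindle, moves chromosomes along it and finishes cytokinesis, and many of their genes are switched on in late cell cycle through promoter elements known as the CHR and the CCAAT box. Transport kinesins carry vesicles, mitochondria and ciliary cargo, and several of them are used mainly by neurons. Kinesin heavy chains work with light chains and cargo adaptors, while dynein, with its cofactor dynactin, moves most cargo the other way.

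A summit is the position of highest read overlap in a called peak, and its height is given as a pileup, the number of extended reads over it, recovered in whole reads from the deposited statistics. A gene counted as marked when a summit lay within 1000 bp of either gene end. The control list held 169542 summits on these chromosomes and the list of overexpressing cells 111569, at a genome average of 57.96 and 51.76 reads per 10 kb. At the genome average a summit needed 6 reads to be called in either library, and at 5 times that background it needed 17. The overexpressed gene itself, TCF19, had 3 summits in overexpressing cells, the highest of 143 reads, and 0 in control cells. Local backgrounds above the genome average came out as whole reads per 10 kb, within 0.05 of a read, at fitted fragment lengths of 273 bp in control cells and 276 bp in overexpressing cells. No correction by input reads is therefore assumed for any fold given here, and the part of open chromatin in the start summits was not tested. Intervals are exact 95% Poisson intervals and cover counting error only.

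Of the 42 kinesin genes, 31 (73.8%) had a gene-end summit in overexpressing cells and 26 (61.9%) in control cells, where 64.8% and 54.6% of all protein-coding genes had one. In both libraries 24 kinesin genes were marked (background 48.8% of all genes, 57.1% of kinesins), always at the same end of the gene. Such agreement was general: of the 9742 protein-coding genes marked in both libraries, 9464 were marked at the same end. In overexpressing cells alone 7 were marked (background 16.0%), in control alone 2 (background 5.84%), and 9 were marked in neither (background 29.4%). Kinesin genes are long, with a median of 56139 bp against 24170 bp for all protein-coding genes. Among the 5478 protein-coding genes between the quartiles of kinesin length, 74.6% had a gene-end summit in overexpressing cells and 63.5% in control cells, so the share of the whole family was close to that of genes of its length.

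The roles differed in their counts. Mitotic kinesins were marked at 12 of 14 genes in overexpressing cells and 11 in control cells, transport kinesins at 11 of 15 and 10, and the others at 8 of 13 and 5. As shares these were 85.7% and 78.6% for mitotic, 73.3% and 66.7% for transport and 61.5% and 38.5% for the others. With overexpression, on balance, 1 more mitotic and 1 more transport gene was marked, and 3 more of the others. Within 500 bp of an end the libraries were level for mitotic (11) and transport genes (9). At that distance 54.7% of all protein-coding genes were marked in overexpressing cells and 42.4% in control cells. In counts the mitotic and transport lists, of nearly equal size, differed by 1 gene in either library, a difference with no replicate check.

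**Figure D1:**
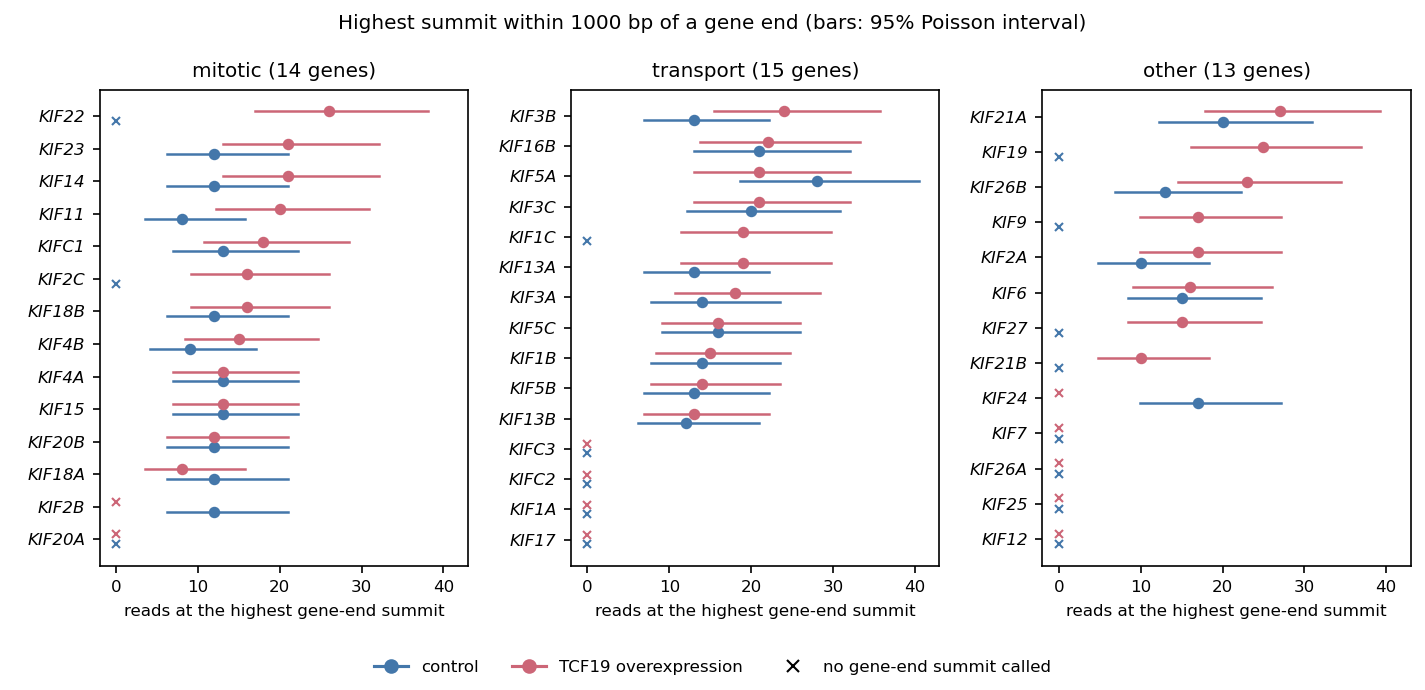
Reads at the highest summit within 1000 bp of a gene end (x axis) for each kinesin gene (y axis), in control cells (blue) and with TCF19 overexpression (red), by role; bars are 95% Poisson intervals and a cross at 0 marks a gene with no called summit, not a count of 0 reads. Mitotic genes sit between 8 and 13 reads in control cells and between 8 and 26 in overexpressing cells, and the bars of both libraries overlap at all 24 genes marked in both, as they do at all but 10 (0.103%) of the 9742 protein-coding genes marked in both.

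The mitotic genes shared promoter letters that the transport genes mostly lacked. RefSeq promoter windows (GRCh38.p14, 250 bases before to 50 after a start) were found for 34 of the 42 genes: all 14 mitotic, 11 transport and 9 others. Each window was searched on both strands for the CCAAT box (CCAAT), the CHR (TTTGAA or TTCGAA), E2F sites (TTTGGCGC, TTTCCCGC, TTTCGCGC or TTTGCCGC), the GC box (GGGCGG) and the TATA box (TATAAA). A CHR was present in 11 of 14 mitotic windows, in 1 of 11 transport windows (KIF5B) and in 13.5% of the 15813 windows of all protein-coding genes. A CCAAT box was present in 11 mitotic and 4 transport windows, against 36.4% of all windows, and both stood together in 10 mitotic windows, 1 transport window and 5.65% of all. KIF4A and its copy KIF4B, whose windows share a run of 50 bases but differ in GC content (66.0% and 48.0%), both held a CHR and a CCAAT box, and without them 9 of 12 mitotic windows held a CHR. The GC box was common to both roles, at 12 mitotic and 10 transport windows, against 58.3% of all. E2F sites were rare, with 1 mitotic (KIF15), 0 transport and 4.45% of all windows. Windows with a CHR did not stand out for summits over the whole genome: 49.2% of genes with one had a summit at the start in overexpressing cells and 42.5% in control cells, below the 62.3% and 50.4% of all genes with a known strand. A match describes letters in the window and is not a measured site.

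The promoters of the 3 mitotic genes with the highest start summits in overexpressing cells are shown with that of KIF20A, which had none, because they let the letters be compared with the peaks. They are KIF22 at chr16:29790501-29790780 (plus strand), KIF14 at chr1:200620722-200621001 (minus strand), KIF23 at chr15:69414099-69414378 (plus strand) and KIF20A at chr5:138178862-138179141 (plus strand). Each run gives the 250 bases before the start and the first 30 after it, and capitals mark a CCAAT box or a CHR on either strand.
KIF22: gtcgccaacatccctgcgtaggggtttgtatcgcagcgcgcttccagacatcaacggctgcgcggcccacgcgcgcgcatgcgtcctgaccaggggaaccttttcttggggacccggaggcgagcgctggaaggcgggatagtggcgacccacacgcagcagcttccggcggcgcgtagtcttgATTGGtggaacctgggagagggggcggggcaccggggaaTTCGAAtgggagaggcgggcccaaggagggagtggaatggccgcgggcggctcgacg
KIF14: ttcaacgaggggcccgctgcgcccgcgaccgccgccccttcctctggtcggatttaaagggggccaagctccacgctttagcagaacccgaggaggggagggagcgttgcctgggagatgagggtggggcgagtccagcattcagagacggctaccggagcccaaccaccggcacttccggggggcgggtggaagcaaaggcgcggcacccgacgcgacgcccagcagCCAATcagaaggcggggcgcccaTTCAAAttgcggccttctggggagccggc
KIF23: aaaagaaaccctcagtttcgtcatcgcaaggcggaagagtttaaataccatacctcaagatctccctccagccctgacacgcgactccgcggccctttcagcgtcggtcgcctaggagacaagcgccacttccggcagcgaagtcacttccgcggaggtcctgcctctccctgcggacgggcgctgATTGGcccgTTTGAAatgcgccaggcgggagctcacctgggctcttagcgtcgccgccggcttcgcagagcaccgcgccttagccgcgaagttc
KIF20A: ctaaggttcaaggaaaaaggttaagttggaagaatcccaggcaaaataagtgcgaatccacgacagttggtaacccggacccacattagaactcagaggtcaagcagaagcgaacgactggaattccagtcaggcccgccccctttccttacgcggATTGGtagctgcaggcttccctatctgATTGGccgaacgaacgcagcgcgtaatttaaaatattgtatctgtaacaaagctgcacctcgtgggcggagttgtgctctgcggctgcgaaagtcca
KIF22, KIF14 and KIF23 each carry 1 CCAAT box and 1 CHR in this stretch, and KIF20A carries 2 CCAAT boxes and no CHR. The windows of KIF2B and KIF2C also lacked a CHR, and each of these genes had a gene-end summit in 1 library.

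Among mitotic motors the largest ratio between libraries was at KIF11 (chromosome 10, 92593130 to 92655395), whose product slides antiparallel microtubules apart to make the spindle bipolar. Its start summit had 8 reads (3.5 to 15.8) in control cells and 20 (12.2 to 30.9) in overexpressing cells, and the summits lay 10 bp apart, 127 and 137 bp into the gene. KIF23 (chromosome 15, 69414349 to 69448427), the motor of the centralspindlin complex in cytokinesis, had 12 reads (6.2 to 21.0) in control cells and 21 (13.0 to 32.1) in overexpressing cells, 18 bp apart. KIF14 (chromosome 1, 200551497 to 200620751), which works with citron kinase at the midbody, likewise had 12 reads (6.2 to 21.0) and 21 (13.0 to 32.1), 92 bp apart. At all 3 genes the overexpression value was the higher one, but the counting intervals overlapped.

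KIFC1, a minus-end motor that clusters centrosomes, had 13 reads (6.9 to 22.2) in control cells and 2 start summits of 18 reads each (10.7 to 28.4) in overexpressing cells. KIF18B, which shortens astral microtubules, had 12 reads (6.2 to 21.0) and 16 (9.1 to 26.0). The libraries were level at 3 other mitotic genes. KIF15, which can back up KIF11, had 13 reads (6.9 to 22.2) in each, KIF20B, a cytokinesis motor, 12 (6.2 to 21.0) in each, and the chromokinesin gene KIF4A 13 (6.9 to 22.2) in each. KIF18A, which damps chromosome movements at the metaphase plate, went the other way, with 12 reads (6.2 to 21.0) in control cells and 8 (3.5 to 15.8) in overexpressing cells. The start summits of KIF15, KIF18A and KIF4A also lay within 1000 bp of an end of KIAA1143, METTL15 and PDZD11 respectively, so they cannot be assigned to one gene.

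KIF4B (chromosome 5, 155013755 to 155018141), a near-identical copy of KIF4A (chromosome X, 70290104 to 70420886), had a start summit of 9 reads (4.1 to 17.1) in control cells and 15 (8.4 to 24.7) in overexpressing cells. The promoter windows of the copies share a run of 50 identical bases, so a read at one start may belong to the other copy, and both genes are uncertain. Without them 10 of 12 mitotic genes were marked in overexpressing cells and 9 in control cells.

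KIF22 and KIF2C were marked in overexpressing cells alone. KIF22 (chromosome 16, 29790751 to 29805385), a chromokinesin that pushes chromosome arms outward, had start summits of 22 reads (13.8 to 33.3) at position 29790936 and 14 (7.7 to 23.5) at 29790556, and a summit of 26 reads (17.0 to 38.1) beyond its other end. That last summit, at 29805668, also lay within 1000 bp of the neighbour MAZ and cannot be assigned to either gene. The nearest control summit lay 2112 bp from the KIF22 start. KIF2C (chromosome 1, 44739837 to 44767767), a microtubule depolymerase at kinetochores, had 16 reads (9.1 to 26.0) at a summit 964 bp before its start, just inside the window. Its nearest control summit, at 1142 bp, lay just outside, so within 2000 bp of an end KIF2C was marked in both libraries. If occupancy and background had been equal, control would have called the 22-read summit of KIF22 with a probability of 0.998 and the KIF2C summit with 0.968; these can be too high, since summits are picked as local maxima.

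KIF2B (chromosome 17, 53822927 to 53825193), another depolymerase, was marked in control alone, with 12 reads (6.2 to 21.0) 313 bp into this short gene, and the nearest overexpression summit lay 31144 bp from its start. At equal occupancy and background overexpressing cells would have called it with a probability of 0.956. KIF20A (chromosome 5, 138179112 to 138187723), which brings the chromosomal passenger complex to the midzone, had no summit in its body or at its ends in either library. The nearest summit to its start lay 9099 bp away in control cells and 17528 bp away in overexpressing cells.

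Transport kinesins had somewhat higher gene-end summits than mitotic ones in both libraries. Over the genes marked in both libraries, the median of the highest gene-end pileup was 14 reads in control cells and 18.5 in overexpressing cells for 10 transport genes, and 12 and 15.5 for 10 mitotic genes. Over all protein-coding genes marked in both libraries it was 14 and 17 reads, so the transport genes were near that level and the mitotic ones below it. These kinesin summits stood on uneven local backgrounds, with a median of 1.9 times the genome average in control cells and 2.04 in overexpressing cells at transport genes and 1.41 and 1.6 at mitotic ones. Their median fold over the local background, as the authors give it, was 3.6 and 4.11 at transport genes and 3.88 and 4.78 at mitotic ones. Over the 9742 protein-coding genes marked in both libraries it was 3.84 and 4.55. In this fold 1 read is added to the pileup and to the background.

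Promoters of the 3 transport genes with the highest start summits and a known strand are shown for contrast, with that of KIF17, which had none. They are KIF3B at chr20:32277401-32277680 (plus strand), KIF16B at chr20:16573419-16573698 (minus strand), KIF3C at chr2:25982468-25982747 (minus strand) and KIF17 at chr1:20717978-20718257 (minus strand). Capitals again mark a CCAAT box or a CHR.
KIF3B: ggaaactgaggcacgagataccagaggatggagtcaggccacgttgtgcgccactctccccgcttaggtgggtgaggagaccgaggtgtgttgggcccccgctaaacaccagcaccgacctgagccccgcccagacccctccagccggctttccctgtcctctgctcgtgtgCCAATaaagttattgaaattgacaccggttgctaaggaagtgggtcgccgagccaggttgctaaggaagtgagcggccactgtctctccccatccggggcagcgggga
KIF16B: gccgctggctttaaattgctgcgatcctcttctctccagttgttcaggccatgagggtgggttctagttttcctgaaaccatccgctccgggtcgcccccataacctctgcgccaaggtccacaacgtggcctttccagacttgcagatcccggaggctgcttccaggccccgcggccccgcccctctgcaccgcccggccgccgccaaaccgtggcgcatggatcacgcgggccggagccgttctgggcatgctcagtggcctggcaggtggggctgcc
KIF3C: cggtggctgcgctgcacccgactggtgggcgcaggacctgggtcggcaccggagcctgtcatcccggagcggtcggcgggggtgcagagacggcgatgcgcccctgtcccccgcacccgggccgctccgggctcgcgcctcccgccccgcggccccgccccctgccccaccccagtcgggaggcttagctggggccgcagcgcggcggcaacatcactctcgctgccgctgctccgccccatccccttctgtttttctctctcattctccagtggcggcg
KIF17: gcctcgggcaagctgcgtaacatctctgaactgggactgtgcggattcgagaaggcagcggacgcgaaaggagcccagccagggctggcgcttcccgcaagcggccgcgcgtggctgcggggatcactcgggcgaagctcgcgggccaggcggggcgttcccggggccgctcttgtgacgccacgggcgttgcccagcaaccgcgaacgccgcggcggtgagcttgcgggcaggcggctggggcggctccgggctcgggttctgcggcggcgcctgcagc
KIF3B carries 1 CCAAT box, and no CHR was found in any of the 4.

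KIF3A, KIF3B and KIF3C, whose kinesin-2 motors run intraflagellar transport in cilia and carry other cargo, were marked in both libraries, while KIF17, which also belongs to kinesin-2, was marked in neither. KIF3B (chromosome 20, 32277651 to 32335011) had 13 reads (6.9 to 22.2) in control cells and 24 (15.4 to 35.7) in overexpressing cells, with summits 4 bp apart. Its partner KIF3A (chromosome 5, 132688812 to 132737546) had 2 control summits of 14 reads each (7.7 to 23.5) and one of 18 (10.7 to 28.4) in overexpressing cells, and KIF3C had 20 (12.2 to 30.9) and 21 (13.0 to 32.1). KIF3B also had a control summit of 9 reads (4.1 to 17.1) beyond its other end that had no counterpart in the list of overexpressing cells, where it would have been called with a probability of 0.812 at equal occupancy.

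The conventional kinesin heavy chains, which pair with light chains to carry vesicles and mitochondria, had gene-end summits in both libraries, with overlapping counting intervals at each gene. KIF5A (chromosome 12, 57550044 to 57586633), the neuronal form, had the highest control pileup of the family, 28 reads (18.6 to 40.5), against 21 (13.0 to 32.1) in overexpressing cells. Its strand is not in the promoter table. These summits stood on backgrounds of 2.78 times the genome average in control cells and 3.03 in overexpressing cells. By fold the highest control gene-end summit was at KIF16B, with 7.42 against 5.38 at KIF5A. KIF5B, the form used in most tissues, had 13 reads (6.9 to 22.2) and 14 (7.7 to 23.5), with a lower control summit of 10 (4.8 to 18.4) at 152 bp from its start. KIF5C had 16 reads (9.1 to 26.0) in each, and overexpressing cells had another summit of 13 (6.9 to 22.2) at 651 bp into the gene.

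Of the vesicle and endosome motors, KIF13A had 13 reads (6.9 to 22.2) in control cells and 19 (11.4 to 29.7) in overexpressing cells, 18 bp apart, and a further overexpression summit of 12 (6.2 to 21.0) lay 373 bp before its start. KIF13B had 12 (6.2 to 21.0) and 13 (6.9 to 22.2). KIF1B had 14 (7.7 to 23.5) and 15 (8.4 to 24.7). KIF16B (chromosome 20, 16272104 to 16573448), an early endosome motor, had 15 reads (8.4 to 24.7) at its start in control cells and 22 (13.8 to 33.3) in overexpressing cells. A further control summit of 21 reads (13.0 to 32.1) and 7.42-fold enrichment lay 941 bp inside its other end, with no counterpart in the list of overexpressing cells, where at equal occupancy its probability of a call would have been 0.999. KIF1C (chromosome 17, 4997950 to 5028401) was the 1 transport gene marked in overexpressing cells alone, with 19 reads (11.4 to 29.7) on a background of 4.98 times the genome average. That summit also lay within 1000 bp of an end of INCA1, and at equal occupancy control would have called it with a probability of 0.790.

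KIF1A and KIF17, motors known mainly from neurons, and the minus-end motors KIFC2 and KIFC3 were the 4 transport genes without a gene-end summit in either library. KIF1A had its nearest summit 9798 bp from its start in control cells and 8492 bp away in overexpressing cells. KIFC3 had 7 body summits in control cells and 8 in overexpressing cells, KIF17 had 1 and 6, and KIFC2 had none.

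The remaining 13 kinesin genes held the highest overexpression pileup of the family and most of the genes marked in 1 library. KIF21A (chromosome 12, 39293228 to 39443120), which restrains microtubule growth at the cell cortex, had paired start summits on both sides of its start. The one before the start had 17 reads (9.9 to 27.2) in control cells and 27 (17.8 to 39.3) in overexpressing cells, and the one inside had 20 (12.2 to 30.9) and 22 (13.8 to 33.3). KIF2A, a depolymerase of spindles and neurons, had 10 reads (4.8 to 18.4) in control cells, and its overexpression summits had 17 (9.9 to 27.2) and 16 (9.1 to 26.0). KIF6 had 15 reads (8.4 to 24.7) and 16 (9.1 to 26.0), and KIF26B 13 (6.9 to 22.2) and 23 (14.6 to 34.5).

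In this group KIF9, KIF19, KIF21B and KIF27 were marked in overexpressing cells alone. KIF19, whose motor limits the length of motile cilia, had 2 summits of 25 reads (16.2 to 36.9) and 24 (15.4 to 35.7) around its lower end, on a background of 5.16 and 5.1 times the genome average. KIF9 had 17 reads (9.9 to 27.2) at a start it shares within 1000 bp with KLHL18, KIF27 had 15 (8.4 to 24.7) at an end it shares with LOC105376335, and KIF21B had 10 (4.8 to 18.4). At equal occupancy control would have called the highest of these summits with a probability of 0.982 at KIF19, 0.982 at KIF9, 0.986 at KIF27 and 0.681 at KIF21B. KIF24, whose product limits cilium assembly at the centriole, was marked in control alone, by a summit of 17 reads (9.9 to 27.2) lying 840 bp beyond its far end and within 1000 bp of UBAP1, which overexpressing cells would have called with a probability of 0.890. KIF7, a regulator of Hedgehog signalling in cilia, KIF12, KIF25 and KIF26A had no gene-end summit in either library.

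**Figure D2:**
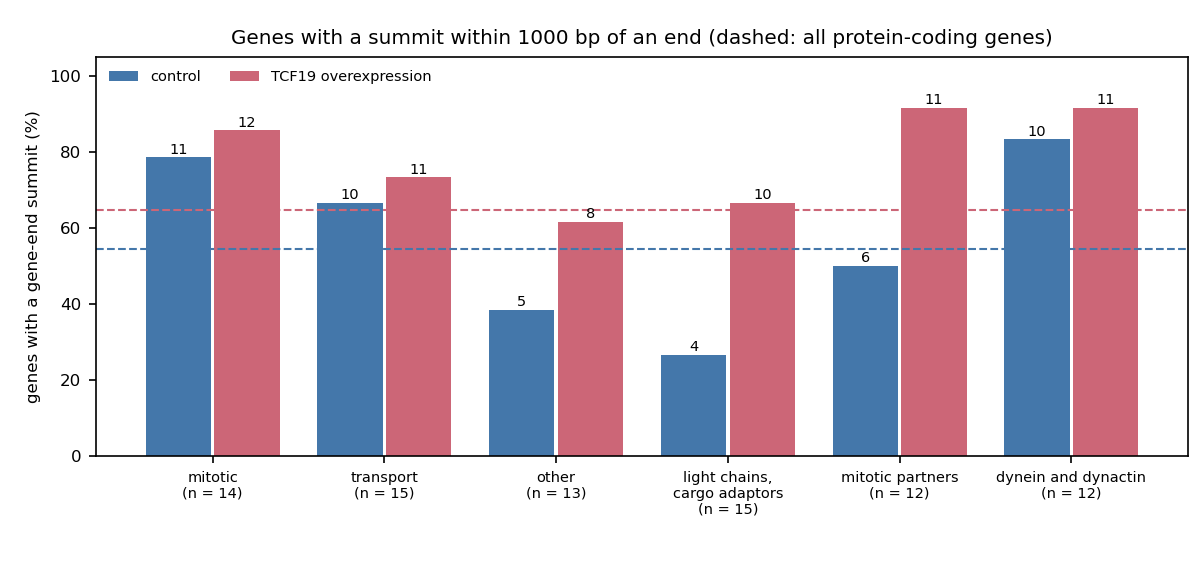
Percentage of genes with a summit within 1000 bp of an end (y axis) for the 3 kinesin roles and 3 lists of genes that work with kinesins, in control cells (blue) and with TCF19 overexpression (red); the number over each bar counts the genes and dashed lines give all protein-coding genes in the same colour. Mitotic kinesins stand at 78.6% in control cells and 85.7% in overexpressing cells, mitotic partners at 50.0% and 91.7%, and light chains and cargo adaptors at 26.7% and 66.7%.

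Where the strand was known, gene starts held most of these summits, 34 in overexpressing cells and 27 in control cells, and the other ends 1 and 3. A further 8 and 3 lay at genes without a known strand. In the 34 kinesin genes with a known strand, 25 had a summit within 1000 bp of the start in overexpressing cells and 22 in control cells, or 73.5% and 64.7%, where the background was 62.3% and 50.4%. At the other end 1 had one in overexpressing cells and 3 in control cells, where the background was 11.4% and 12.3% of genes with a known strand. By role, 12 of 14 mitotic, 9 of 11 transport and 4 of 9 other genes had a start summit in overexpressing cells, and 11, 8 and 3 in control cells. Promoters rich in CpG were marked more often in general: with a CpG count of at least 0.6 of that expected from base content, 78.4% of all genes had a start summit in overexpressing cells and 60.9% in control cells. In that class 24 of 30 kinesin genes had one in overexpressing cells and 21 in control cells. All 14 mitotic windows were in that class, and 12 and 11 of them were marked. The kinesin counts therefore stood near those of other CpG-rich starts in overexpressing cells.

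Among these kinesin summits, mitotic ones lay closer to the annotated start than transport ones, with a smaller gap in control cells. These positions were not counted over all protein-coding genes, and some genes gave several of the summits. In overexpressing cells 12 of 14 mitotic start summits and 3 of 13 transport start summits were within 250 bp of the start, and in control cells 9 of 11 and 7 of 11. Transport summits lay mostly inside the gene. Their median position was 251 bp past the start in overexpressing cells and 208 bp in control cells, against 68 and 127 bp for mitotic ones. In these medians summits before the start count as negative, so they are not sizes of distance. In overexpressing cells 6 of 14 mitotic and 3 of 13 transport start summits lay before the start. All 11 transport start summits in control cells lay past the start, and 6 of 11 mitotic ones did.

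**Figure D3:**
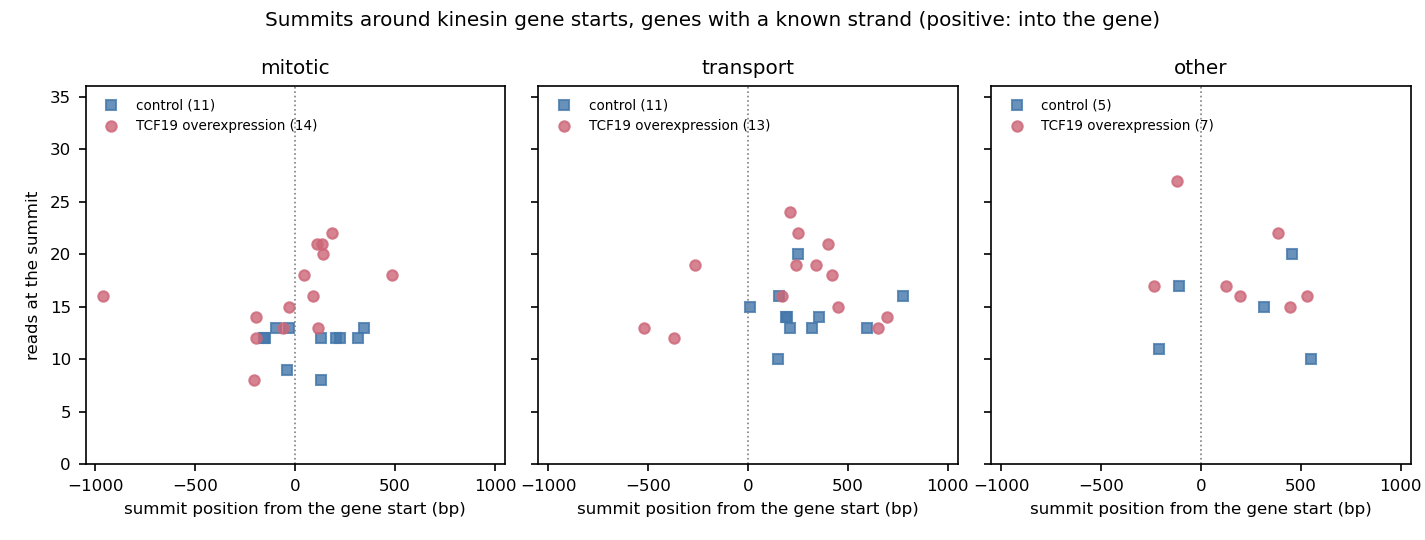
Position of each start summit from the gene start in bp (x axis, positive into the gene) and its reads (y axis) for kinesin genes with a known strand, in control cells (blue squares) and with TCF19 overexpression (red circles), by role. Most mitotic summits sit within 250 bp of the start, and transport summits of overexpressing cells reach from 519 bp before it to 693 bp past it.

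Where both libraries had a summit within 100 bp at the same kinesin end, heights could be set side by side. There were 16 such pairs in 15 genes, and on the log2 scale the overexpression pileup over the control pileup, each relative to its genome average, had a median of 0.60, from -0.44 at KIF18A to 1.47 at KIF11. It was above 0 in 15 of 16 pairs, of which 3 had equal read numbers and owed the sign to the lower depth of overexpressing cells. Over the 4631 pairs at ends of all protein-coding genes the median was 0.34, with quartiles of 0.04 and 0.63, and 78.1% were above 0. The 7 mitotic pairs had a median of 0.88 and the 6 transport pairs 0.38, and each set ranged widely, down to -0.44 in mitotic and from 0.15 to 1.03 in transport genes. The Poisson intervals of the reads overlapped in every one of the 16 pairs, and were apart in 7 (0.151%) of the 4631.

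Away from the ends control cells had more summits than overexpressing cells at the deposited threshold. More than 1000 bp from both ends, kinesin genes held 286 summits in control cells and 167 in overexpressing cells. Per 100 kb of body this was 7.49 (6.65 to 8.42) in control cells and 4.38 (3.74 to 5.09) in overexpressing cells, against 6.22 and 3.92 over all protein-coding genes. The gap was small when both lists were limited to equal numbers of summits of highest fold, at 4.69 in control cells against 4.38 in overexpressing cells. The ratio of overexpression to control body summits was 0.584 in kinesins and 0.631 in all genes. Control had more body summits in 27 kinesin genes, overexpressing cells in 7, and 8 were level, of which 5 had none in either library. The control list was the longer one, and this split was not counted over all genes. The intervals of the mitotic and transport roles overlapped: mitotic bodies had 6.77 (4.90 to 9.11) and 4.72 (3.19 to 6.74) summits per 100 kb, and transport bodies 7.76 (6.45 to 9.27) and 4.33 (3.36 to 5.48).

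Among single genes KIF26B, the longest at 554448 bp, had 62 body summits in control cells and 36 in overexpressing cells. KIF16B had 22 and 10, KIF13A 21 and 10, KIF13B 17 and 4, and KIF6 16 and 7. KIF17 went the other way with 1 and 6, and KIF2C with 2 and 4. The highest body pileup was 32 reads, in KIF19 in overexpressing cells, and 25 reads, in KIFC3, in control cells.

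**Figure D4:**
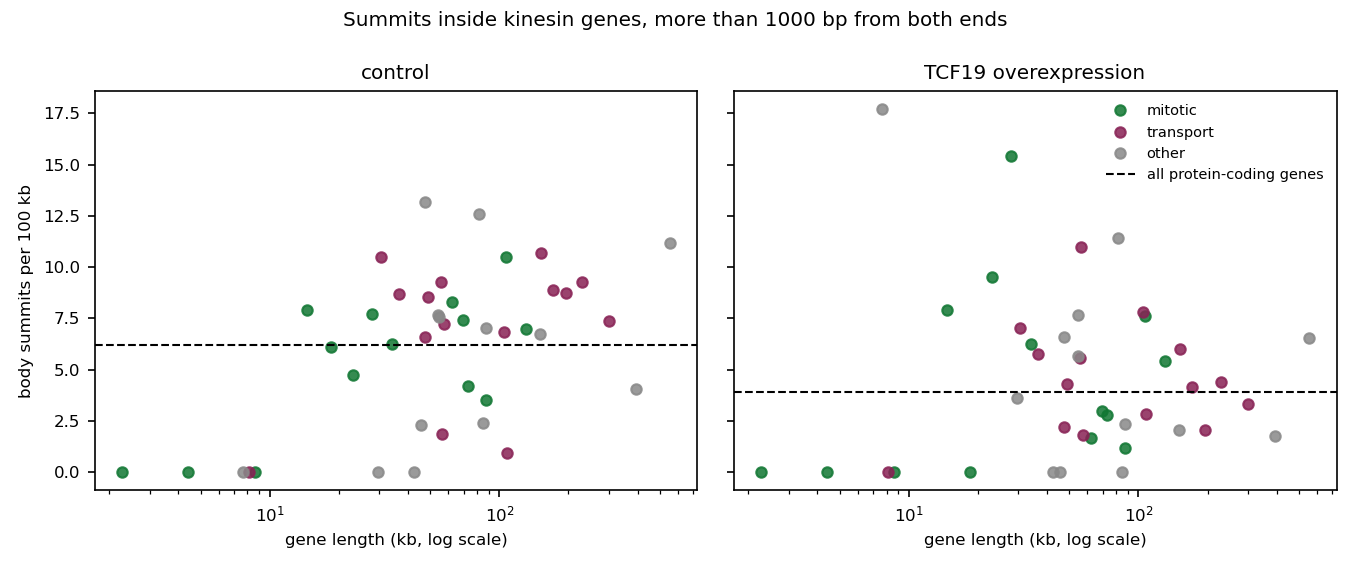
Summits per 100 kb of gene body (y axis) against gene length in kb on a log scale (x axis) for the 42 kinesin genes, by role, in control cells (left) and with TCF19 overexpression (right); the dashed line is the density over all protein-coding genes. Most genes sit lower on the right than on the left, and the dashed line moves from 6.22 to 3.92.

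Genes that work with kinesins were read in the same way, against the same background of 64.8% and 54.6%. Their lists were chosen with earlier results of these data known. Of 12 partners of mitotic kinesins, 11 were marked in overexpressing cells and 6 in control cells. TPX2, which targets spindle motors, had 15 reads (8.4 to 24.7) in control cells and 20 (12.2 to 30.9) in overexpressing cells, and PRC1, which recruits KIF4A to the midzone, had 12 (6.2 to 21.0) and 23 (14.6 to 34.5). RACGAP1, the partner of KIF23 in centralspindlin, had 34 reads (23.5 to 47.5) in control cells and 20 (12.2 to 30.9) in overexpressing cells. CENPE, itself a kinesin by structure, AURKB, CKAP5, HMMR, NUMA1 and NUSAP1 were marked in overexpressing cells alone, and INCENP in control alone. The summits of HMMR, NUMA1 and NUSAP1 also lay within 1000 bp of ends of NUDCD2, of LRRC51 and LRTOMT, and of OIP5, so they cannot be assigned to one gene.

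Of 15 light chain and cargo adaptor genes, 10 were marked in overexpressing cells and 4 in control cells. KLC1, a kinesin light chain, had 21 reads (13.0 to 32.1) in control cells and 20 (12.2 to 30.9) in overexpressing cells. RHOT1, which tethers mitochondria to kinesin, had 28 reads (18.6 to 40.5) in overexpressing cells alone, as did MAPK8IP3 with 21 (13.0 to 32.1). KLC2, KLC4, KIFAP3, PLEKHM2 and RHOT2 were marked in neither. Dynein and dynactin genes were marked at 11 of 12 in overexpressing cells and 10 in control cells, with DYNC1H1, the dynein heavy chain, in overexpressing cells alone at 23 reads (14.6 to 34.5) and DCTN3 in neither. In both libraries the summits of DYNLL1, DYNLT1 and the adaptor gene TRAK2 also lay within 1000 bp of ends of SRSF9, SYTL3 and STRADB respectively. They cannot be assigned to a single gene.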

How the data were processed

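Peak lists were analysed from 2 ChIP-seq libraries, 1 control and 1 TCF19 overexpression, grouped by the genotype label. The submitters' processing notes name BWA 0.7.12, MACS2 2.1.0 and hg38; settings, duplicate handling and whether an input library was used are not given in the sources. The deposited files give a score, a fold enrichment (the summit's pileup over the background around it), a −log10 p-value and a −log10 q-value per summit, all the authors' values, with q-values of at most 0.05.

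Pileups in whole reads were solved from the authors' fold together with their −log10 p-value (largest misfit 0.001), which worked at 99.997% of control and 99.996% of overexpression summits and was tested on simulated data. Gene spans came from RefSeq GRCh38.p14, and strand and promoter letters from its promoter table, which lacks KIF5A, KIF13B, KIF19, KIF21B, KIF26B, KIF27, KIFC2 and KIFC3. For KIF7, KIF24 and KIFC1 the nearest listed window does not begin at the gene end. The probability of a call in the other library scales pileup and background by depth and uses the lowest deposited −log10 p-value there as the limit. Wherever equal occupancy is named, an equal local background is assumed too. The observed pileup is taken as the true mean, so the counting interval of the summit does not enter the probability. Members and lists were chosen with earlier results of these data known. Values of single adaptor genes are given for a few only, and some are not reported here. All kinesin genes are accounted for; those marked in 1 library, those with paired summits and the highest are given with reads and intervals, at least for the highest summit of each library. With 1 library per group no p-value was computed. Analyses used Python 3.11.15, numpy 2.4.6, pandas 2.3.3 and scipy 1.17.1.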

Additional observations from a re-analysis of the deposited data

How the results depend on the processing

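The counts of marked kinesin, mitotic and transport genes stayed within 1.5 times their reported values under windows of 500 and 2000 bp, a q-value of at most 0.001, equal numbers of summits of highest fold, interval overlap, low local background (at most 3 times the genome average), removal of ends shared with another gene, and the other assignments of KIF2A, KIF21A and KIF21B. The libraries were level for mitotic genes within 500 bp (11 in each), within 2000 bp and by interval overlap (12 in each), and for transport genes within 500 bp (9 in each) and without shared ends (10 in each). Over all genes the shares in control and overexpressing cells were 42.4% and 54.7% within 500 bp and 65.2% and 72.6% within 2000 bp. By interval overlap they were 57.6% and 67.2%. At low local background transport genes had 8 in overexpressing cells and 9 in control cells, where all genes stood at 51.1% and 46.5%. Under the other settings more mitotic and transport genes were marked in overexpressing cells. With equal numbers of summits of highest fold, control had 18 kinesin genes, 8 mitotic and 7 transport, and overexpressing cells 31, 12 and 11, where all genes stood at 34.4% and 64.8%. Body summits per 100 kb moved with the threshold: at a q-value of at most 0.001 they were 4.95 in control cells and 2.96 in overexpressing cells, and with equal numbers of summits 4.69 and 4.38. Ends with paired summits numbered 15 within 100 bp and 19 within 200 bp. Counting any start in the promoter table, chosen after seeing the data, gave 27 and 32 kinesin genes in control cells and overexpression. No paired analysis was possible because each group has 1 library. Pileups of 8 to 28 reads leave wide counting intervals, which limits any comparison of single genes.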

Other observations

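Of 6 kinesin starts in the promoter table that lie more than 1000 bp inside the gene span, 5 had a summit within 1000 bp in at least 1 library, where 50.4% of the 5313 such starts of all protein-coding genes had one. The start of KIF1A at 1184 bp had none, and that of KIF1B at 1046 bp had the summits counted at its gene end. KIF24 has a listed start 4403 bp inside its span, on chromosome 9 at 34329268, with a summit of 10 reads (4.8 to 18.4) in control cells and 16 (9.1 to 26.0) in overexpressing cells, so that gene was marked at a start in both libraries although its gene ends were marked in control alone. KIF7 has a listed start at 89655467 on chromosome 15, 7582 bp inside its span, with 13 reads (6.9 to 22.2) in control cells and no summit in overexpressing cells. An inner start of KIF5C at 148947875 on chromosome 2 had 8 reads (3.5 to 15.8) and 9 (4.1 to 17.1), and one of KIF6 at 39431390 on chromosome 6 had 14 (7.7 to 23.5) and 12 (6.2 to 21.0). The summits at the inner starts of KIF24, KIF7, KIF5C and KIF6 count as body summits above.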
